A study of Bos taurus with 18 samples.

Results

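Milk somatic cells of 6 cows with mastitis were compared with those of 6 cows with endometritis, so that inflammation of the udder itself was set against inflammation of a distant organ. Arrays were assigned to the groups by the sample titles alone. The arrays compared and the gene lists were, however, chosen with earlier results of these data known. Counts and ranks of lists below are therefore descriptions and not independent support. The arrays of both groups made up 12 of the 18 arrays of the series, and the other 6 came from healthy cows. The series gave 1 Affymetrix bovine genome array per cow and described the 6 cows of a group as biological replicates. The p-values below therefore rest on the spread between cows, pooled over the 3 groups. Cows of both diseased groups were in lactations 1 to 8 and were sampled 10 to 220 days after calving, on farms and in university clinics. Healthy cows, described as 2 to 4 years old with most samples from 10 to 100 days after calving and fewer than 100000 cells per ml of milk, are cited below for orientation. Their labels also name lactations 1 to 8, which is hard to reconcile with that age. The pathogen, the severity of disease, any drug treatment, the part of the udder sampled, the age of the diseased cows and the cell count of their milk were not stated in the labels used.

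Milk from a healthy udder holds mostly leukocytes, among them macrophages and lymphocytes, together with secretory cells that the gland sheds. In mastitis, bacteria in the udder are sensed by epithelial cells and resident macrophages, which release chemokines, and neutrophils enter the milk in large numbers, while milk secretion falls. Endometritis affects the inner wall of the uterus, most often after calving, and is a disease of another organ. All levels are deposited log values of normalised intensity, read as log2 from their range of 2.43 to 14.2 because the base is not stated, so that 1 unit stands for a factor of 2. Every difference is mastitis minus endometritis. Errors are standard errors (SE) of limma's fit with 6 arrays per group unless named otherwise. Levels are given as the lowest, the median and the highest of the 6 arrays of a group, and the median of all values, 2.55, was taken as the background level.

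The largest differences separated genes of neutrophils and inflammation, higher in mastitis, from genes of milk secretion, higher in endometritis. PTX3, a soluble pattern recognition protein, was the leading rise at 6.44 ± 0.84, and ELF5, a regulator of genes in secretory alveolar cells, the leading fall at -6.92. Of 24016 probe sets tested with limma, 1919 were higher and 1574 lower in mastitis at an adjusted p under 0.05, together 14.5% of the array, and 6186 had an unadjusted p under 0.05. With 1 probe set per gene, 837 of 9155 genes (9.14%) were higher and 994 (10.9%) lower. These shares include 1560 genes at background on all arrays of both groups. Of the 1831 called genes, 1813 remained when dim probe sets were left out. Lists of bright genes, such as the ribosomal, proteasome and reference lists, are thus set against a low share below. No share was computed for bright genes alone. Of the 571 called genes with several probe sets, 149 had all of them called the same way. In 8 called genes another probe set was called in the opposite direction. A change of at least 2-fold was found for 609 of the higher and 620 of the lower genes, and one of at least 8-fold for 103 and 55. The median difference over all genes was -0.01. In 459 genes (5.01%) all 6 mastitis arrays lay above all 6 endometritis arrays, and in 546 (5.96%) they all lay below. Both criteria were met by 912 genes. A further 765 probe sets without a gene symbol were higher and 468 lower, and these are not described here.

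**Figure D1:**
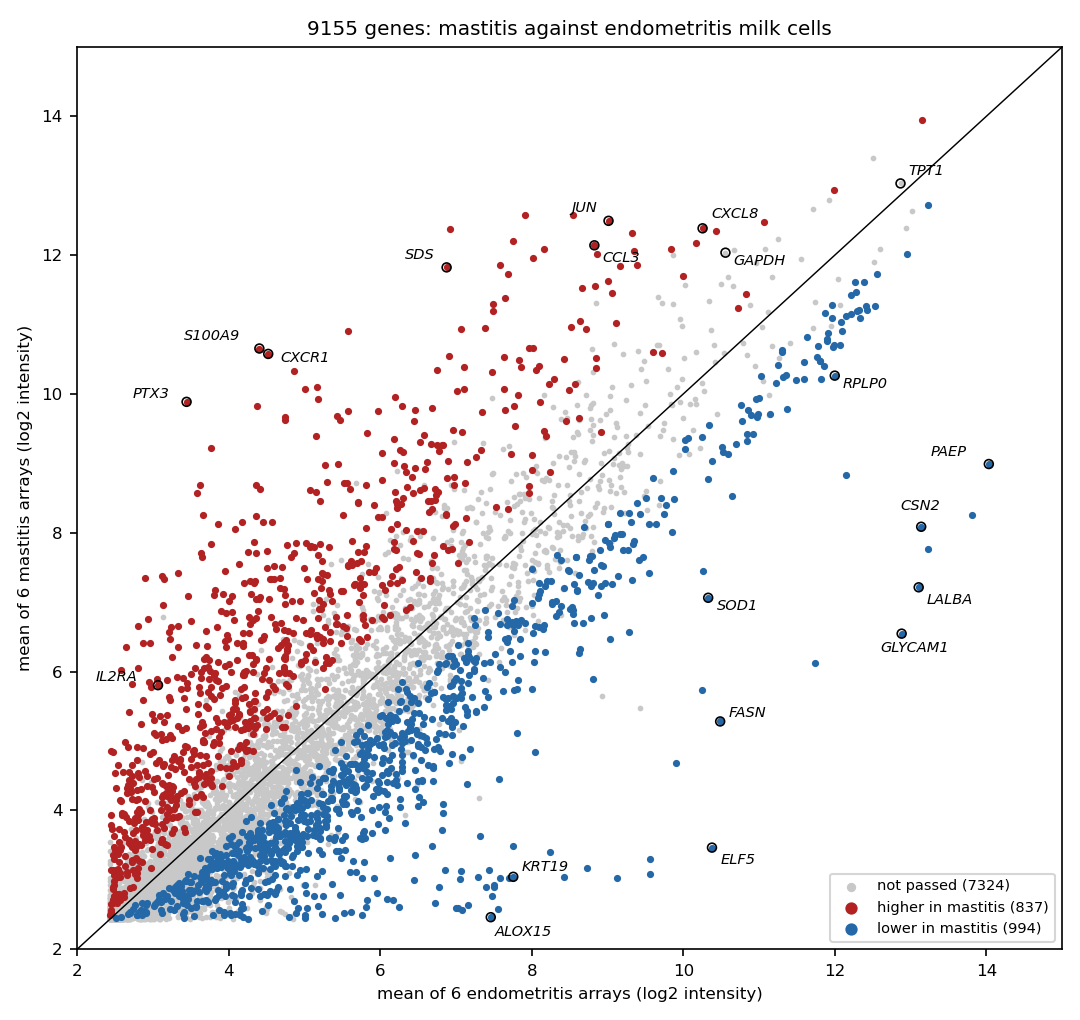
Mean level of each of 9155 genes on the 6 endometritis arrays (x axis, log2 intensity) against the 6 mastitis arrays (y axis, log2 intensity), with genes past an adjusted p of 0.05 in red (837 higher in mastitis) and blue (994 lower) and equal levels on the diagonal. S100A9, CXCR1 and PTX3 lie far above the diagonal, ELF5, FASN and GLYCAM1 far below it, and TPT1 close to it.

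The arrays of each group were not uniform. For each list of genes a score was formed, the mean over its measured members of each gene's deviation from its mean over the 18 arrays. The mammary secretory score ran from -3.01 to -2.54 on 5 mastitis arrays and stood at -1.20 on mastitis 1. It was between 0.67 and 2.26 on 5 endometritis arrays and -0.77 on endometritis 5, so the groups did not overlap. The neutrophil score lay between 1.22 and 2.25 on the mastitis arrays, between -1.50 and -0.78 on 5 endometritis arrays, and at 0.25 on endometritis 6. Mastitis 1 and endometritis 5 and 6 were therefore left out as a further setting chosen after seeing the data: 879 genes were then higher and 687 lower, and 1286 of the 1831 calls kept their direction and passed. The median correlation over probe sets over the pairs of arrays was 0.949 between mastitis arrays, 0.929 between endometritis arrays and 0.851 between the groups.

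Control probe sets showed some differences too. Hybridisation controls read 8.72 ± 0.27 (SD) in mastitis and 8.77 ± 0.48 in endometritis (exact two-sided permutation p = 0.81). The dap poly-A controls, spiked in before labelling, read 6.03 ± 0.45 (SD) in mastitis and 6.93 ± 0.81 in endometritis (exact permutation p = 0.0433, adjusted 0.108 over 10 measures). The other poly-A controls were also lower in mastitis, with lys at 2.88 ± 0.13 (SD) against 3.32 ± 0.46 (exact permutation p = 0.0325), phe at 3.34 ± 0.22 against 4.13 ± 0.77 (0.0346) and thr at 3.52 ± 0.22 against 4.18 ± 0.58 (0.026), each adjusted to 0.108. The dap levels of endometritis 5 and 6, 5.89 and 6.04, lay inside the mastitis range of 5.54 to 6.66. The 3′ minus 5′ difference of the GAPDH controls, a sign of RNA integrity, was 0.39 ± 0.23 (SD) and 0.58 ± 0.25 (exact permutation p = 0.208). With the dap level as a covariate, also chosen after seeing the data, 481 genes were higher and 629 lower, and 1000 of the 1831 calls remained. The part of these controls in the differences below was not tested otherwise.

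Neutrophil markers gave the highest median of any list. Of 14 measured markers, 8 rose, 0 fell and 6 did not pass, with a median difference of 3.26. In each of those 8 the mastitis arrays lay above all endometritis arrays. CXCR1 is the receptor by which neutrophils follow interleukin 8. Its levels were 9.09, 10.64 and 12.03 on mastitis arrays and 2.82, 4.20 and 8.28 on endometritis arrays. Endometritis 6 alone read above 5 in its group, still below the lowest mastitis array. The difference was 6.06 ± 0.84, or 66.6-fold (adjusted p = 0.000252), and the healthy mean was 5.07.

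S100A8 and S100A9 form calprotectin, a calcium and metal binding complex that fills the cytosol of neutrophils. S100A9 ran from 8.66 to 12.04 with a mean of 10.65 in mastitis and at 2.99, 4.02 and 7.52 in endometritis, a difference of 6.25 ± 0.77 (adjusted p = 0.000108, both of its probe sets). S100A8 ran at 10.76, 12.70 and 13.32 against 5.58, 6.34 and 9.34, a difference of 5.47 ± 0.67. The related S100A12, with 11.31, 12.91 and 13.40 against 5.88, 8.70 and 10.17, rose by 4.03 ± 0.72. VNN2, a pantetheinase on the neutrophil surface, rose by 5.06 ± 0.57, and NCF4, a cytosolic subunit of the phagocyte oxidase, by 3.42 ± 0.39. FCGR3A, an Fc receptor for IgG, and TREM1, an amplifier of inflammatory signals, completed the 8. MPO and ELANE, granule enzymes of neutrophil precursors, are named here after their values were seen, and they read at most 2.78 and 2.76 on any array of the 2 groups, at or near background. These arrays measure RNA of all cells together, so fewer cells of a type and less RNA per cell cannot be told apart here or in any result below.

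**Figure D2:**
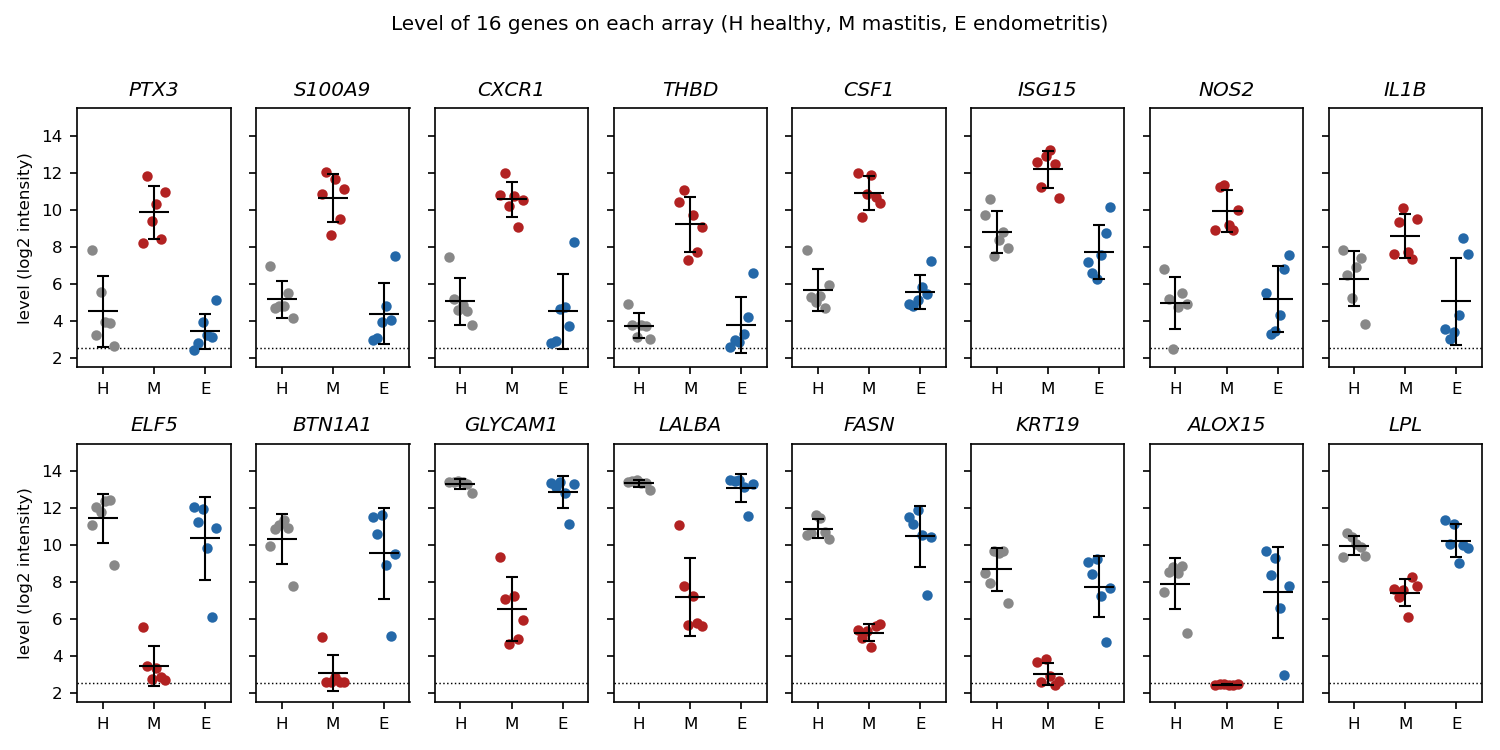
Level (y axis, log2 intensity) of 16 genes on each array of the healthy (H), mastitis (M) and endometritis (E) groups, 1 point per cow in array order, with mean and SD in black and the background level of 2.55 as a dotted line. Genes of the upper row have a higher mean in mastitis than in endometritis, and genes of the lower row a lower one. For IL1B the groups overlap, with endometritis 5 at 8.49. Single endometritis arrays lie towards the mastitis points, such as endometritis 5 for ELF5 (6.13) and endometritis 6 for CXCR1 (8.28).

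PTX3 led the rises. It was at 8.24, 9.89 and 11.87 in mastitis and 2.43, 3.18 and 5.11 in endometritis, where the lowest array was at background, and the gap of 6.44 had an adjusted p of 0.00017. THBD, thrombomodulin, which binds thrombin and curbs clotting, read 7.28, 9.40 and 11.11 against 2.61, 3.14 and 6.62 (difference 5.46 ± 0.73). CSF1, the growth factor of macrophages, read 9.61, 10.81 and 12.00 against 4.82, 5.31 and 7.25 (difference 5.34 ± 0.56), at 1 of its 2 probe sets. In each of these 3 genes endometritis 6 was the highest array of its group. PSTPIP2, an adaptor of the myeloid cytoskeleton, rose by 5.44 ± 0.60, WLS, which carries Wnt proteins to the surface, by 5.06 ± 0.63, and RUBCNL, a regulator of autophagy, by 5.46 ± 0.95. SDS, serine dehydratase, reached 11.37, 11.85 and 12.42 on mastitis arrays against 5.15, 6.42 and 9.76 and rose by 4.95 ± 0.68. TGM3, a transglutaminase, rose by 4.99 ± 0.77, LOC407171, a gene with a locus name only, by 4.93 ± 0.77, G0S2, an inhibitor of triglyceride lipase, by 4.67 ± 0.58, and TNFAIP6, a hyaluronan-binding protein of inflamed tissue, by 4.47 ± 0.63.

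The genes with the smallest p were not those with the largest change. FAM107B differed by only 1.66 ± 0.11, but its 6 endometritis arrays lay between 2.80 and 2.83 and its mastitis arrays between 3.91 and 4.91 (adjusted p = 1.28e-06). GTF2B, a general transcription factor of RNA polymerase II, reached the same adjusted p, with 9.05, 9.73 and 10.51 against 6.30, 6.71 and 6.99 and a difference of 3.11 ± 0.21. IL2RA, the alpha chain of the interleukin 2 receptor, rose by 2.74 ± 0.23. FCAR, the Fc receptor for IgA, rose by 4.08 ± 0.39, OPTN, an autophagy receptor, by 1.99 ± 0.20, the metalloprotease ADAM19 by 3.24 ± 0.31, and PPP1R3B, which targets a phosphatase to glycogen, by 2.73 ± 0.26. In all 7 of these genes every mastitis array was above every endometritis array. The healthy means were 2.82 for FAM107B, against 2.81 in endometritis, and 6.60 for GTF2B, against 6.68. The 6 healthy arrays of FAM107B also lay between 2.80 and 2.83, and the fit pools the spread of all groups. Its SE and p therefore understate the spread between mastitis cows. The same holds for SOCS3 and IL1R2 below, which were also near background on healthy and endometritis arrays.

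Most receptors for cytokines and chemokines rose. Of 15 measured, 11 rose and 0 fell, with a median of 2.09, and in all 11 the arrays of the groups did not overlap. IL6R, which binds interleukin 6, rose by 2.70 ± 0.38 at both probe sets, from levels of 2.53 to 4.41 on endometritis arrays to 4.49 to 6.72 on mastitis arrays. TNFRSF1A, the main receptor of tumour necrosis factor, rose by 3.16 ± 0.45 and IFNGR2, a chain of the interferon gamma receptor, by 2.09 ± 0.26 (1 of 2 probe sets).

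Sensing of bacteria showed the same direction, with 10 of 22 genes of Toll-like receptors and the NF-kappaB pathway higher, 0 lower and a median of 0.73. TLR4, which recognises lipopolysaccharide, read 8.56, 9.51 and 10.43 in mastitis and 3.27, 4.82 and 7.08 in endometritis, a difference of 4.24 ± 0.69 (adjusted p = 0.000829). TLR2, which recognises bacterial lipoproteins, rose by 2.83 ± 0.59, the adaptor MYD88 by 2.62 ± 0.38, the kinase IKBKB by 2.69 ± 0.29 and the NF-kappaB subunit NFKB1 by 2.86 ± 0.41. CD14, the co-receptor of TLR4, was 0.99 higher without passing (adjusted p = 0.392, interval -0.42 to 2.40). Its levels were 9.34, 10.53 and 12.01 against 8.14, 9.43 and 10.82, which overlap.

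Inflammatory cytokines split by gene. Of 16 measured, 5 rose, 0 fell and 11 did not pass, with a median of 0.76. CSF1 (above) led them by size of difference, followed by IL1B, with 7.34, 8.55 and 10.10 on mastitis arrays and 3.04, 3.96 and 8.49 on endometritis arrays, where endometritis 5 and 6 read 8.49 and 7.60 and the other 4 arrays at most 4.34. IL1B rose by 3.54 ± 0.99 (adjusted p = 0.0238). Its call was lost without mastitis 2 or without endometritis 1, 2 or 3 (adjusted p up to 0.0602), in the fit of the 12 arrays alone and with the dap covariate. TNFSF13B, a survival factor of B cells, rose by 2.03 ± 0.25, IL15 by 1.87 ± 0.35 and IL18 by 2.26 ± 0.60, the last not passing with array weights or the dap covariate. TNF was at 3.54, 4.56 and 5.58 against 3.27, 3.68 and 5.89 and did not pass, with a difference of 0.60 (interval -0.51 to 1.71). IL6 was above 4 on mastitis 2 and 6 alone, at 5.52 and 4.16, and its difference of 0.92 did not pass (adjusted p = 0.121).

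Among 16 chemokines 6 rose and 0 fell, with a median of 1.57. CXCL8, interleukin 8, was abundant in both groups, at 11.83, 12.43 and 12.89 against 9.04, 10.14 and 11.64, and rose by 2.13 ± 0.45 (adjusted p = 0.00458). Endometritis 5 and 6 had the highest CXCL8 of their group. CCL3, which attracts monocytes, rose by 3.32 ± 0.80 at 2 of 3 probe sets, and endometritis 5, at 12.01, lay inside the mastitis range of 11.09 to 12.85. Its call was lost with the dap covariate. CCL20 rose by 2.71 ± 0.59. CXCL10, induced by interferon gamma, ranged from 2.85 to 8.43 over the mastitis cows and rose by 2.91 ± 0.68. CCL4 and CXCL2 were the other members that rose. The count of 6 became 9 without endometritis 5 and 6, 10 without mastitis 1 as well, and 3 with the dap covariate.

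In the anti-inflammatory list 11 of 14 genes rose and 0 fell, with a median of 2.36, or 1.62 when a gene was the mean of its probe sets. TNIP1, a brake on NF-kappaB, read 7.06, 8.15 and 9.05 against 4.01, 4.48 and 4.86 and rose by 3.70 ± 0.38 (adjusted p = 3.12e-05). IL1RN, the natural antagonist of interleukin 1, was high in mastitis at 10.58, 12.16 and 12.84 and rose by 3.94 ± 0.54 from 6.70, 7.71 and 9.46. The cytokine signalling inhibitor SOCS3 rose by 2.36 ± 0.25 and the inhibitor of NF-kappaB NFKBIE by 2.37 ± 0.25 at all 4 of its probe sets. IL1R2, the decoy receptor of interleukin 1, was spread over 3.70 to 8.26 in mastitis and lay within 2.47 to 2.92 in endometritis (difference 3.46 ± 0.65). It is also a gene induced by glucocorticoids. In that list of 12 genes, 5 rose and 1 fell, with a median of 0.84. The share that fell, 8.33%, was near that of all genes (10.9%). DUSP1, a phosphatase of MAP kinases, rose by 2.62 ± 0.64, not passing with the dap covariate, and HSD11B1, which regenerates cortisol, rose by 0.50 ± 0.06 at levels of 2.72 to 3.18, near background. CEBPD rose by 1.08 ± 0.32 and lost its call without mastitis 2 or 6 or any of endometritis 1 to 4 (adjusted p up to 0.0722). The count of 5 fell to 3 without mastitis 2 or any of endometritis 1 to 4 and to 2 with the dap covariate. The member that fell, ERRFI1, did not pass when mastitis 1, 3, 4, 5 or 6 or endometritis 1, 2 or 4 was left out.

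Interferon response genes formed the largest inflammatory group by count of called genes, with 23 of 30 higher, 0 lower and a median of 2.53. In 16 of them all mastitis arrays were above all endometritis arrays. IRF9, the DNA-binding part of the interferon-activated factor, read 5.82, 6.40 and 7.84 against 2.62, 3.17 and 4.18 and rose by 3.41 ± 0.34 (adjusted p = 2.69e-05). STAT2, its partner, rose by 2.16 ± 0.30, the regulator IRF7 by 2.79 ± 0.40 at 2 of 3 probe sets, and DHX58, a sensor of the RIG-I family, by 2.38 ± 0.35. ISG15, a ubiquitin-like protein, reached 10.68, 12.55 and 13.28 against 6.26, 7.38 and 10.15 (difference 4.45 ± 0.69). Endometritis 6, at 10.15, came close to the lowest mastitis array, mastitis 6, at 10.68. The order of mastitis arrays differed from that of the neutrophil genes: the interferon score was highest on mastitis 4 (2.62) and lowest on mastitis 6 (0.46), and the neutrophil score highest on mastitis 2 (2.25) and lowest on mastitis 5 (1.22).

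Antigen presentation by MHC class I gave 10 of 16 genes higher, 0 lower and a median of 1.25. TAP2, a chain of the peptide transporter, rose by 2.87 ± 0.44, the immunoproteasome subunit PSMB9 by 2.26 ± 0.30, the proteasome activator PSME2 by 1.58 ± 0.21 and TAPBPL, a peptide editor, by 2.51 ± 0.33. Class II presentation gave 5 of 17 higher and 0 lower, with a median of 1.15. The members that rose were the peptide-loading chains BOLA-DMA (1.84 ± 0.34), BOLA-DMB (1.81 ± 0.41, not passing with the dap covariate) and BOLA-DOA, a modulator of peptide loading, and the costimulators CD80 (1.19 ± 0.14) and CD40 (2.83 ± 0.42, 1 of 2 probe sets). CD40 did not pass as the mean of its probe sets. Probe sets of the BOLA family can share sequence with related genes, so their assignment is uncertain.

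In the complement list 4 of 18 genes rose and 0 fell. CD55, which protects host cells from complement, rose by 3.89 ± 0.60, factor B (CFB) by 3.49 ± 0.47 and factor D (CFD) by 2.21 ± 0.37. C1R rose by 1.17 ± 0.32, a call lost without endometritis 1 (adjusted p = 0.0527) and under 4 other settings.

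Antimicrobial and acute phase genes gave 9 higher and 1 lower of 26, with a median of 0.44, and 3 of the 9 (S100A8, S100A9 and S100A12) are also neutrophil markers. NOS2, inducible nitric oxide synthase, read 8.91, 9.59 and 11.36 against 3.32, 4.94 and 7.59 and rose by 4.75 ± 0.83 at 2 of 4 probe sets. DEFB10, a beta-defensin of a family with similar members, rose by 4.60 ± 0.77, with mastitis 3 at 4.27 and the other mastitis arrays at 8.01 or more. HP, haptoglobin, rose by 2.64 ± 0.71 and overlapped between groups; it did not pass with the dap covariate or without endometritis 5 and 6. SAA3, the serum amyloid made in the udder, read 5.06, 6.71 and 7.83 against 3.49, 4.09 and 6.53 and rose by 2.05 ± 0.60 (adjusted p = 0.0309), but lost its call without mastitis 1, 2, 4 or 6 or endometritis 2, 3, 4 or 5 (adjusted p up to 0.0778). Lactoferrin, LTF, an iron-binding milk protein also stored in neutrophil granules, read 4.11, 5.54 and 7.37 against 5.65, 6.76 and 8.40 and did not pass (difference -1.04, interval -2.31 to 0.23). The member that fell was LPO, lactoperoxidase of milk, at -3.20, named after its value was seen.

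The phagocyte oxidase makes superoxide, and 5 of its 6 measured genes rose, with a median of 2.33: CYBA, CYBB, NCF1, NCF4 and RAC1. NCF1, the organiser subunit, read 9.10, 9.53 and 10.54 against 3.76, 4.33 and 7.02 and rose by 4.93 ± 0.52 (adjusted p = 4.19e-05). CYBB, the catalytic subunit, rose by 2.75 ± 0.77, but not without mastitis 2 or 4 or endometritis 1, 2 or 3, and RAC1 rose by 0.91 ± 0.28, but not without mastitis 1, 2, 4 or 6 or endometritis 1, 2 or 3. Without 1 array the count was 2 (mastitis 2 or 4, endometritis 1 or 3) or 3 (mastitis 1 or 6, endometritis 2), and it was 2 with array weights and with the dap covariate. Of 25 antioxidant enzymes 3 were higher and 3 lower (12% each), near the shares of all genes (9.14% higher and 10.9% lower), and the number higher became 6 without mastitis 2, 5 without mastitis 6, endometritis 5 or endometritis 6, 7 without both of the last, and 1 with the dap covariate. The number lower became 5 without mastitis 3. SOD2, the mitochondrial superoxide dismutase, rose by 3.15 ± 0.41, with 11.09, 12.15 and 12.58 against 7.96, 8.51 and 10.10. SOD1, the cytosolic enzyme, fell by 3.27 ± 0.47, with 6.00, 7.14 and 8.31 against 9.32, 10.20 and 11.52, and neither gene overlapped between the groups. Catalase, CAT, fell by 2.26 ± 0.47 and PRDX5 rose by 1.92 ± 0.46, the last not with the dap covariate. NFE2L2, the regulator of antioxidant genes, also rose, and PRDX3, the mitochondrial peroxiredoxin, fell.

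Of 18 eicosanoid genes 5 were higher and 2 lower, and the share lower, 11.1%, was near that of all genes (10.9%). ALOX5AP, which feeds arachidonate to 5-lipoxygenase, rose by 4.23 ± 0.71, the platelet-activating factor receptor PTAFR by 4.19 ± 0.69 and the leukotriene receptor LTB4R by 1.69 ± 0.30. PTGS2, the inducible cyclooxygenase, and TBXAS1, thromboxane synthase, also rose, and LTA4H, which makes leukotriene B4, fell. ALOX15, a 15-lipoxygenase, was at background on all 6 mastitis arrays and read 2.97, 8.09 and 9.70 on endometritis arrays, which makes it at least 29.9-fold lower in mastitis (adjusted p = 0.00206). Endometritis 5 was the array at 2.97. Its healthy mean was 7.93.

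Adhesion and migration genes gave 8 of 18 higher and 0 lower, with a median of 1.11. ICAM1, a ligand of leukocyte integrins, read 6.83, 9.23 and 9.69 against 2.71, 4.28 and 6.39 and rose by 4.32 ± 0.65. ICAM3 rose by 3.16 ± 0.63, CD47 by 2.39 ± 0.30 and the hyaluronan receptor CD44 by 2.53 ± 0.56, the last not with the dap covariate, under which 3 of the 18 were higher. Matrix genes gave 3 of 20 higher (15%, against 9.14% of all genes) and 1 lower (5%, against 10.9%). PLAU, urokinase, rose by 3.56 ± 0.72, with endometritis 5 and 6 highest in their group at 9.08 and 10.18. The protease inhibitor TIMP1 rose by 3.53 ± 0.80, not with the dap covariate. VCAN, the proteoglycan versican, rose by 2.43 ± 0.70, not without mastitis 2 or 6 or endometritis 1, 2 or 3. TIMP3 fell by 1.40 ± 0.39, not without endometritis 1, 2 or 4.

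Of 26 immediate early and stress genes 13 rose, 0 fell and 13 did not pass, with a median of 1.54. DDIT4, an inhibitor of mTORC1, read 10.82, 12.08 and 12.59 against 6.25, 7.23 and 9.52 and rose by 4.28 ± 0.51. JUN rose by 3.48 ± 0.55 at all 5 of its probe sets, the pseudokinase TRIB1 by 3.86 ± 0.63 and the stress factor DDIT3 by 2.94 ± 0.40. In the apoptosis and survival list 10 of 21 rose, 0 fell and 11 did not pass, and the members that moved both promote and restrain death. The death receptor FAS rose by 3.35 ± 0.37, the inflammatory caspase CASP4 by 3.55 ± 0.44, the adaptor FADD by 0.74 ± 0.10 and the survival factor BCL2L1 by 0.99 ± 0.18.

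The list of glycolysis and hypoxia genes gave 8 of 27 higher and 1 lower, with a median of 1.21. The number higher was 13 without endometritis 5, 18 without endometritis 5 and 6, and 4 with the dap covariate. Besides the genes given with values below, the hypoxia genes ADM, BNIP3 and EGLN3 and the glycolytic enzyme PKM rose. The glycolytic enzymes HK1, HK3, GPI, PFKL, PFKP, ALDOA, TPI1, GAPDH, PGK1, PGAM1, ENO1, LDHA and LDHB did not pass. The member that fell was SLC16A1, another lactate carrier, and no member fell without mastitis 1 or 4 or endometritis 1 or 3, in the fit of the 12 arrays alone, with array weights, or with the dap or GAPDH covariate. SLC16A3, which exports lactate, rose by 3.43 ± 0.70 at 1 of 3 probe sets, VEGFA by 3.17 ± 0.51 at both, and the glucose transporters SLC2A1 and SLC2A3 by 1.66 ± 0.34 and 1.14 ± 0.24. Lysosomal genes gave 7 of 32 higher and 0 lower, a count that fell to 2 without mastitis 1 or 4 or endometritis 2 or 3, to 3 without endometritis 1, to 4 without endometritis 4, to 2 with array weights and to 1 with the dap covariate. It rose to 11 without endometritis 5 and 6. LAMP1, a membrane protein of lysosomes, rose by 2.22 ± 0.49 at 1 of 2 probe sets. The proton pump subunit ATP6V1E1 rose by 1.66 ± 0.38, not with the dap covariate, and the protease CTSZ by 2.47 ± 0.69, not without mastitis 1 or 4 or endometritis 1, 2 or 3. The lysosome score was highest on endometritis 5 (1.13) of all 12 arrays, and lowest on endometritis 3 (-1.43).

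**Figure D3:**
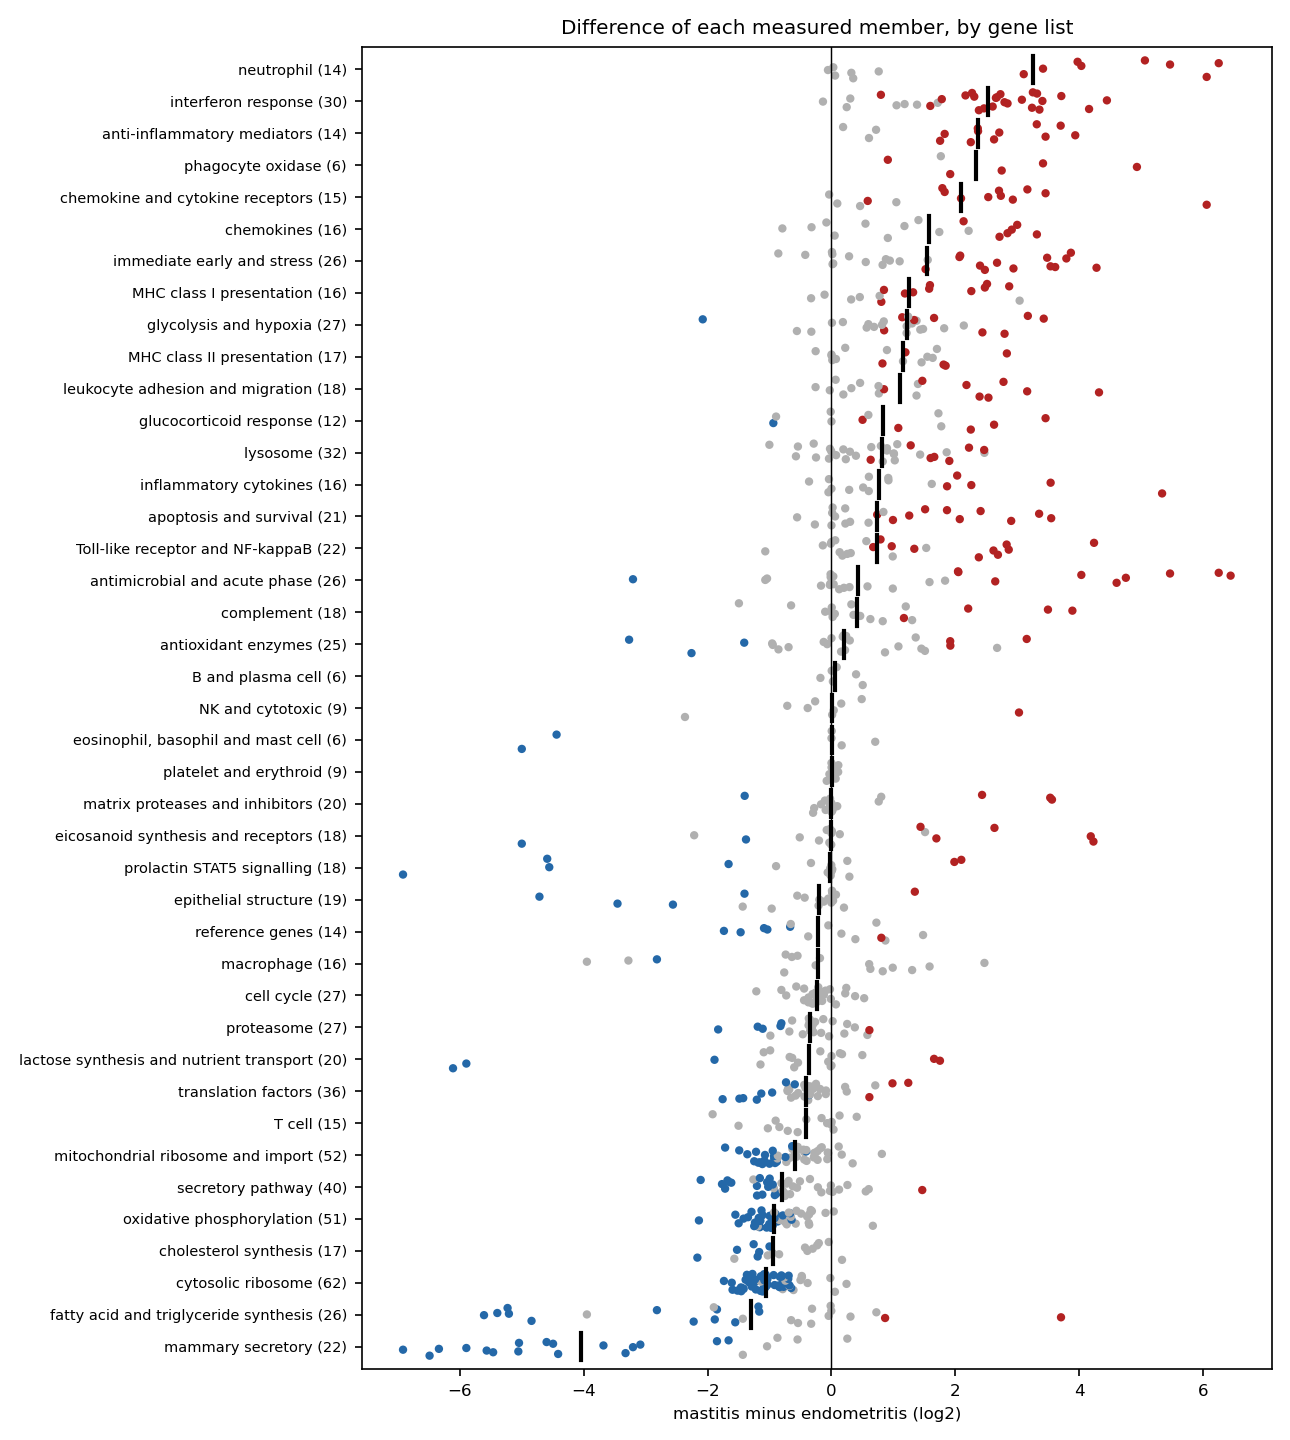
Difference between mastitis and endometritis (x axis, log2) of each measured member of 41 gene lists (rows, with the number measured), as points that are red where higher and blue where lower at an adjusted p under 0.05 and grey otherwise, with the list's median as a black bar. Lists are ordered by their median, from mammary secretory (-4.05) at the bottom to neutrophil (3.26) at the top.

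Milk genes were among the largest falls. In the mammary secretory list 17 of 22 measured genes fell and 0 rose, with a median of -4.05, and in 13 the mastitis arrays all lay below the endometritis arrays. ELF5 read 2.71, 3.12 and 5.60 in mastitis and 6.13, 11.11 and 12.08 in endometritis. Mastitis 1, at 5.60, and endometritis 5, at 6.13, were the nearest arrays of the groups. The fall of 6.92 ± 0.92 was 121-fold (adjusted p = 0.000195), and the healthy mean was 11.46. BTN1A1, butyrophilin of the milk fat globule membrane, came closer still, with mastitis 1 at 5.06 and endometritis 5 at 5.08, and fell by 6.49 ± 0.97.

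Among milk proteins, the caseins form micelles and alpha-lactalbumin, LALBA, takes part in lactose synthesis. LALBA read 5.61, 6.53 and 11.09 against 11.58, 13.40 and 13.54 and fell by 5.89 ± 0.73. CSN3, kappa-casein, read 6.66, 7.97 and 11.40 against 12.85, 14.01 and 14.18 and fell by 5.57 ± 0.62. PAEP, beta-lactoglobulin, fell by 5.04 ± 0.55, CSN1S2 by 5.46 ± 0.72, CSN2 by 5.05 ± 0.66 at 2 of 3 probe sets and CSN1S1 by 3.32 ± 0.49. GLYCAM1, a mucin-like milk protein, read 4.68, 6.52 and 9.36 against 11.16, 13.23 and 13.43 and fell by 6.34 ± 0.64 (adjusted p = 3.12e-05). Casein and whey transcripts stayed above background on each mastitis array, with the lowest LALBA at 5.61 and the lowest PAEP at 7.36. In the fit without mastitis 1 and endometritis 5 and 6, 17 secretory genes were lower and the median was -5.18. Over all arrays of both groups the neutrophil score ran from 1.22 to 2.25 in mastitis and from -1.50 to 0.25 in endometritis, and its part in the fall of milk genes was not tested.

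In the fatty acid and triglyceride list 12 of 26 fell, 2 rose and 12 did not pass, among them ACACA and ACLY, with a median of -1.30. The share that rose, 7.69%, was near that of all genes (9.14%). FASN, fatty acid synthase, read 4.51, 5.40 and 5.76 against 7.32, 10.86 and 11.89 and fell by 5.21 ± 0.59 (adjusted p = 5.45e-05). SCD, which desaturates stearate, fell by 5.23 ± 0.73, the fatty acid carrier FABP3 by 5.61 ± 0.72 and GPAM, the first enzyme of glycerolipid assembly, by 5.39 ± 0.88. DGAT2, which catalyses the last step of triglyceride synthesis, went the other way, with 4.97, 6.40 and 7.66 against 2.43, 2.47 and 3.50, a rise of 3.71 ± 0.37 (adjusted p = 2.55e-05). DGAT1, which catalyses the same step and is named after its value was seen, rose by 0.87 ± 0.27 (adjusted p = 0.0443). Only 1 of these rises passed without healthy 2 or 3, mastitis 1, 2, 4 or 6, or endometritis 1, 2, 3 or 6. Cholesterol synthesis gave 6 of 17 lower and 0 higher, with a median of -0.95; DHCR7 fell by 2.16 ± 0.40 and MSMO1 by 1.52 ± 0.28. The transporter ABCG2, which secretes riboflavin and drugs into milk, fell by 6.11 ± 0.98 at 1 of 2 probe sets, and DNAJC12, a co-chaperone, by 6.25 ± 0.93. Among 20 genes of lactose synthesis and nutrient transport 3 fell (ABCG2, LALBA and SLC29A1) and 2 rose (SLC1A5 and SLC2A1), or 15% and 10%, near the shares of all genes (10.9% and 9.14%). The number higher was 1 without mastitis 2, 3, 4 or 6 or any of endometritis 1 to 4, in the fit of the 12 arrays alone and with the dap covariate, and the number lower was 5 without endometritis 5 and 6.

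Prolactin and STAT5 genes gave 4 of 18 lower and 2 higher (11.1%, against 9.14% of all genes). ELF5 led the falls, with the trefoil factor TFF3 at -4.59 and the transcription factor NFIB at -4.56 (1 of 2 probe sets), and PRLR, the prolactin receptor, fell too, while STAT3 rose by 1.98 ± 0.35 at both probe sets, with STAT6. Genes of epithelial structure fell less uniformly, 4 of 19 lower (21.1%, against 10.9% of all genes) and 1 higher (5.26%, against 9.14%). KRT19, a keratin of simple epithelia, read 2.44, 2.82 and 3.86 against 4.77, 8.06 and 9.28 and fell by 4.71 ± 0.69, and the adhesion molecule EPCAM read 2.51, 2.67 and 3.11 against 4.27, 5.97 and 8.08 and fell by 3.45 ± 0.55. CLDN7, a claudin of tight junctions, fell by 2.56 ± 0.53, and KRT7 was the last of the 4. KRT8 was at background in both groups and KRT18, at most 3.74 on any of these arrays, differed by -0.43 without passing; both are keratins of luminal cells. LAMB3, a laminin chain at background on all endometritis arrays, was at least 2.35-fold higher in mastitis.

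Markers of other leukocytes gave few calls. Of 16 macrophage markers 0 rose and 1 fell (6.25%, against 10.9% of all genes), with a median of -0.22. LPL, a lipase of blood-borne triglycerides that mammary epithelium also makes, was the marker that fell, by 2.82 ± 0.41, with 6.14, 7.60 and 8.29 against 9.05, 10.06 and 11.37. FABP4, a fatty acid binding protein of macrophages and fat cells, ranged from 2.47 to 9.74 in mastitis and from 4.07 to 12.36 in endometritis, and its difference of -3.95 did not pass (adjusted p = 0.124), though it passed without endometritis 3. GPNMB showed the same arrays high and low, with a difference of -3.28 (adjusted p = 0.143) that passed without mastitis 5. CTSD was 2.47 higher (adjusted p = 0.0772) and passed without endometritis 5. The macrophage score ran from -1.20 to 1.46 in mastitis and from -1.83 to 2.25 in endometritis, highest on endometritis 5. Without endometritis 5 and 6 the median turned to 0.68, with 2 markers higher and 1 lower, and without mastitis 1 as well to 0.84, with 0 higher and 1 lower. CD163 was not measured under that name.

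Among 15 T cell markers 0 passed in limma in either direction, with a median of -0.41 (0.04 with array weights) and 0 with an unadjusted p under 0.05. CD3E read 3.04, 3.37 and 4.35 against 3.22, 3.83 and 6.59 (difference -0.84, interval -2.01 to 0.32), and endometritis 2 and 4, at 5.72 and 6.59, held the highest levels. The T cell score was 1.36 and 1.87 on these arrays and at most 0.77 on the other 10. The same pair of cows had the highest KIT, a receptor of mast cells and some epithelial cells, which fell by 4.44 ± 0.96 in mastitis at 2 of 4 probe sets. KIT and ALOX15 (above) were the 2 that fell among 6 eosinophil, basophil and mast cell markers (33.3%, against 10.9% of all genes). The other 4, CCR3, FCER1A, HDC and TPSB2, did not pass, and the list median was 0.0019. FCER1A ran from 2.56 to 4.99 in mastitis and from 2.48 to 4.12 in endometritis. GNLY, a protein of cytotoxic granules, was the member that rose among 9 NK and cytotoxic markers, by 3.03 ± 0.78, with mastitis 2 at background (2.55); it did not pass in the fit of the 12 arrays alone. The share of 1 in 9 (11.1%) was near that of all genes (9.14%). The number higher was 2 without mastitis 1 or 3 or with array weights, each time with NCR1, and KLRK1 passed as lower without endometritis 3. Of 6 B and plasma cell markers 0 passed in limma and 1, BLK, had an unadjusted p under 0.05. BLK, a B cell kinase, had an adjusted p of 0.0535 and passed under several other settings. Of 9 platelet and erythroid genes 0 passed in limma, with 0 at an unadjusted p under 0.05, and HBA and HBM were at or near background.

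Many ribosomal and mitochondrial genes fell by smaller amounts, and unevenly over cows. Cytosolic ribosomal protein genes gave 49 of 62 lower and 0 higher, with a median of -1.06. RPL22 read 8.82, 9.75 and 10.50 against 10.61, 11.21 and 11.56 and fell by 1.44 ± 0.26 (adjusted p = 0.00186), and RPLP0 fell by 1.74 ± 0.35 at all 3 of its probe sets. Mastitis 1, 2 and 4 had the low values, with RPLP0 at 9.18, 9.48 and 9.47, while mastitis 3, 5 and 6 read 11.24, 11.36 and 10.85, near the lowest endometritis array at 11.55. The ribosome scores showed the same: -1.41, -1.35 and -1.14 on mastitis 1, 2 and 4, and -0.17, 0.08 and -0.11 on mastitis 3, 5 and 6, against 0.05 to 0.62 in endometritis. On those same arrays, 1, 2 and 4, the neutrophil score was 2.24, 2.25 and 1.99 and the macrophage score -0.55, -1.20 and -1.14, against neutrophil scores of 1.34, 1.22 and 1.62 and macrophage scores of 1.18, 1.46 and -0.16 on arrays 3, 5 and 6. The part of either in the ribosomal difference was not tested. The count of 49 became 29 in the fit of the 12 arrays alone, 26 with scaling to the hybridisation controls and dim probe sets left out, 24 with array weights and 22 with the dap covariate, with no member higher in any of these.

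Oxidative phosphorylation genes followed, with 30 of 51 lower, 0 higher and a median of -0.93. NDUFA4 read 5.59, 6.90 and 7.90 against 8.28, 9.14 and 9.33 and fell by 2.14 ± 0.41 at 1 of 2 probe sets. UQCRB, a subunit of complex III, fell by 1.29 ± 0.24, again at 1 of 2, and ATP5F1C of the ATP synthase by 1.16 ± 0.23. The count was 18 in the fit of the 12 arrays, 17 without endometritis 5 and 6, with array weights or with the dap covariate, and 12 without mastitis 1 and endometritis 5 and 6 or with scaling to the hybridisation controls. Mitochondrial ribosome and import genes gave 20 of 52 lower and 0 higher, and the count was 10 to 13 without mastitis 1, 2, 4 or 6 or endometritis 1, 3 or 6, and 4 without mastitis 1 and endometritis 5 and 6. MRPL9 fell by 1.07 ± 0.25. In the secretory pathway 17 of 40 fell and 1 rose, among them SSR4 of the translocon (-2.11) and the signal peptidase subunit SPCS1 (-1.77), while the COPII GTPase SAR1A rose by 1.47 ± 0.24. The number lower was 9 with scaling to the hybridisation controls and dim probe sets left out, 9 without mastitis 1 and endometritis 5 and 6, and 10 with the dap covariate. Translation factors gave 9 lower of 36 (25%, against 10.9% of all genes) and 3 higher (8.33%, near the 9.14% of all genes). The number lower was 4 or 5 without mastitis 1, 2 or 4 or endometritis 1 or 6 and 14 without mastitis 5. EIF2S3 fell by 1.13 ± 0.16 at both probe sets and the release factor ETF1 rose by 1.24 ± 0.21. Constitutive proteasome genes gave 5 lower (18.5%) and 1 higher (3.70%) of 27, against 10.9% and 9.14% of all genes. All 27 were above background on every array of both groups, so the share of all genes is a low standard for them. The number lower was 3 without mastitis 1, 2 or 4 or endometritis 1, 3 or 6 and 1 in the fit of the 12 arrays. Lower in the main fit were PSMB5, PSMB6, PSMC2, PSMC3 and PSMD1, with PSMB4 higher. Cell cycle genes gave 0 of 27 in either direction in limma, and 1 had an unadjusted p under 0.05.

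**Figure D4:**
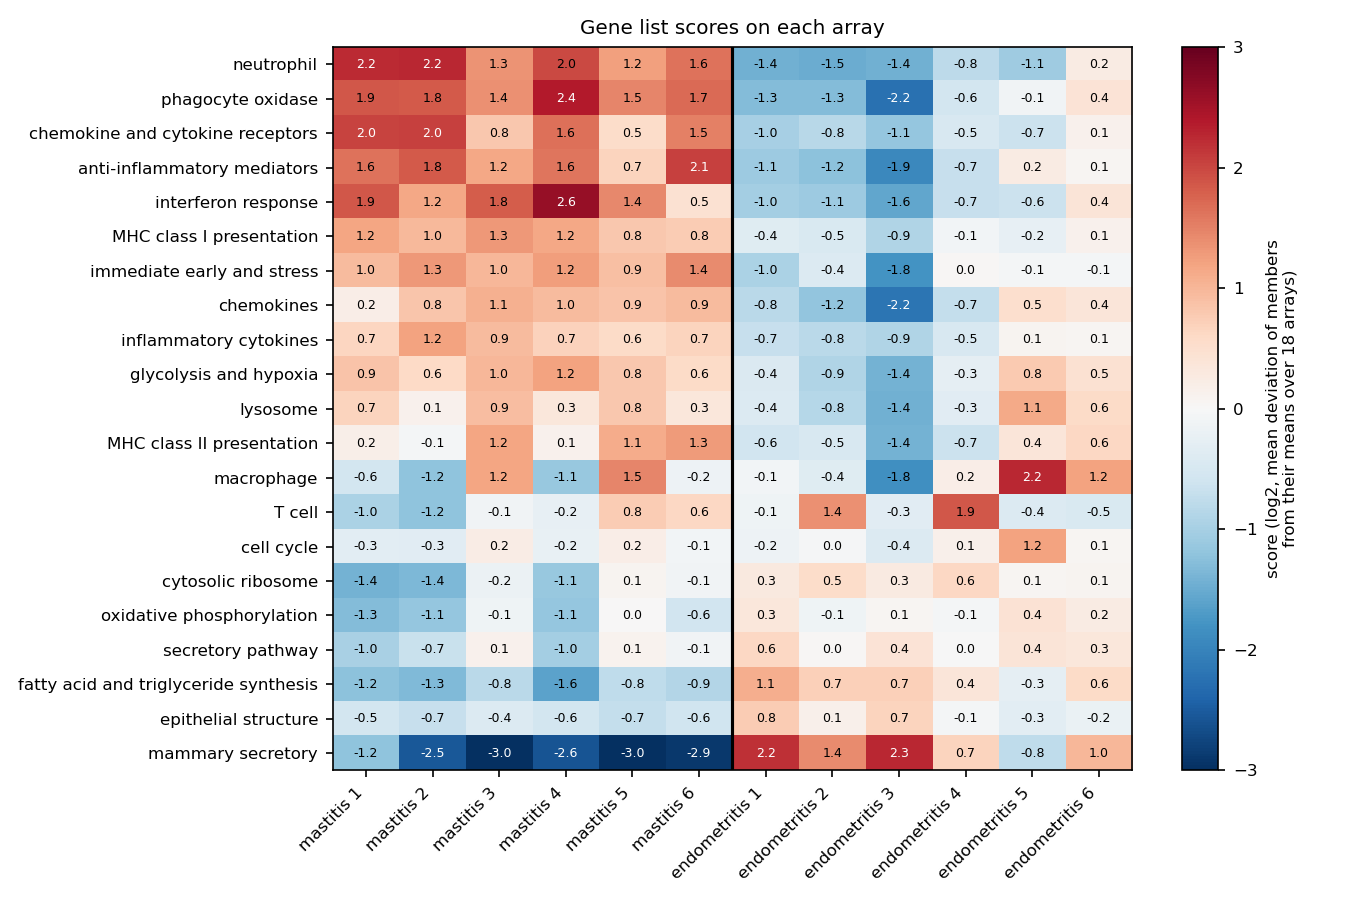
Scores of 21 gene lists (rows) on the 6 mastitis and 6 endometritis arrays (columns), each the mean deviation of the members from their means over 18 arrays (log2, colour and number). Ribosome and oxidative phosphorylation scores are low on mastitis 1, 2 and 4, the macrophage score is highest on endometritis 5, and the T cell score on endometritis 2 and 4.

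Genes often used as references were not all stable between the groups. Of 14, 5 fell (35.7%, against 10.9% of all genes), 1 rose (7.14%, against 9.14%) and 8 did not pass. PPIA (-1.47), RPLP0 (-1.74), RPS9 (-1.09), RPS15 (-1.03) and SDHA fell, and B2M rose. RPLP0, RPS9 and RPS15 are also in the ribosome list and SDHA in the oxidative phosphorylation list. ACTB was 0.87 higher (adjusted p = 0.0925) and GAPDH 1.48 higher (adjusted p = 0.0907) without passing. GAPDH read 11.43, 11.98 and 12.68 against 8.61, 10.61 and 12.09. Both passed when arrays were centred on the median of bright probe sets, when dim probe sets were left out, and without endometritis 5. Of 349 genes with a mean above 8 in both groups, those whose interval lay nearest to 0 were TPT1, PSMA7, TAF10, PCBP1, ARF1, YWHAE, H3-3A, CLTA, MYL12A and ELOC. TPT1, a translation-linked growth factor, read 12.79, 13.07 and 13.26 against 12.60, 12.91 and 13.02 (difference 0.17, adjusted p = 0.203, upper bound of the interval 0.34), although 1 of its 6 probe sets was higher. PCBP1, an RNA-binding protein, differed by 0.15 (-0.13 to 0.44) and PSMA7 by -0.17 (-0.44 to 0.11). A difference smaller than these bounds is not shown to be absent.

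Endometritis and healthy milk gave no called difference. In the same fit, 0 of 9155 genes (0%) differed between endometritis and healthy milk at an adjusted p under 0.05 by limma. Of 24016 probe sets, 1047 had an unadjusted p under 0.05, a smaller share than that cut-off lets through by chance alone. The healthy arrays also enter the estimate of spread of the comparison with mastitis, so the values are only set side by side. In 55 of the 1831 called genes the endometritis mean lay outside the other means with an unadjusted p under 0.05 against healthy. The 8 with the smallest p were chosen by that value, which is therefore no test of them. SREBF1, a regulator of lipid synthesis, read 5.89, 6.66 and 7.02 in mastitis, 7.44, 7.78 and 8.01 in endometritis and 6.56, 7.01 and 7.42 in healthy milk, and its mastitis arrays lay below all endometritis arrays (difference -1.18 ± 0.18, adjusted p = 0.000551, 1 of 4 probe sets). DAG1, dystroglycan, showed the same order, with 3.25, 3.63 and 4.09 against 4.70, 5.33 and 6.20 and a healthy mean of 4.58 (difference -1.79 ± 0.24, adjusted p = 0.000191, 1 of 2 probe sets). UBR2 and CDC40 also had their highest means in endometritis, 0.78 and 0.59 above mastitis, and CUL5 was lowest there, with mastitis 0.45 above it. DNAJC9, IQCB1 and KLRB1 differed by at most 0.16 close to background, and of these IQCB1 and KLRB1 lost their calls in 15 and 9 of the 18 fits without 1 array. Other settings also cost calls, 5 of them each for CUL5 and IQCB1, 4 each for DNAJC9 and KLRB1, 2 for UBR2 and 1 for CDC40.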

How the data were processed

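RNA of milk somatic cells was hybridised to 1 bovine Affymetrix array per cow, 6 cows per group, after 3′ IVT labelling of 100 ng of RNA, per the labels' protocols. The deposited log2 values had been normalised between arrays by the authors; RMA, GCRMA and limma are named, per the submitters' processing notes, without versions or roles. For the deposited table, the method among these and the base of the logarithm: not given in the sources used here. Either method pulls dim probe sets together near background, which understates differences of low genes.

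The values were used as deposited. After 112 control probe sets were set aside, limma 3.58.1 in R 4.3.3 fitted 24016 probe sets over 18 arrays with a term per group (lmFit, eBayes), and p-values were adjusted over all of them by Benjamini-Hochberg. A probe set passed at an adjusted p under 0.05. In the platform annotation 13292 probe sets had 1 gene symbol, 86 several and 10638 none. Each gene was represented by the brightest of its probe sets, judged by the mean of all 18 arrays. A gene with all 6 arrays of a group at or under 2.55 got a lower bound of its fold. The script was tested on simulated data. The number of arrays limits the precision.

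Genes are named by this rule: the 20 largest rises and 15 largest falls without overlap, the 10 smallest p, the 4 members of smallest p in a list, a fixed set of mastitis genes, 8 genes with the endometritis mean outermost and 10 bright genes nearest to 0. List members given without a value, and MPO, ELANE, LPO and DGAT1, were named after their values were seen. The members and lists were chosen with earlier results of these data known. Alternatives covered the arrays fitted, a filter on dim probe sets, scaling, array weights, moderation and covariates. They also covered a block for sample title numbers above a limit, the probe sets of a gene and each array left out. Leaving out endometritis 5 and 6, these with mastitis 1, and the dap covariate were chosen after seeing the data. No sequences are shown.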

Additional observations from a re-analysis of the deposited data

Results flagged for a closer look

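In each group of 6 arrays the highest and the lowest value were set against the rest. This covered 202 combinations of a group with a gene, a list score or an array measure such as a control. A value is given here where its gap to the nearest array, as a share of the group's range, exceeded Dixon's critical ratio at the 95% level. For normally distributed values chance alone would give about 1 such case in 20 groups. Some groups here lay near background on most arrays, such as BTN1A1 and GPAM in mastitis. Others lay near the highest value of the data, such as PAEP in endometritis, at 14.11 or more on all arrays but endometritis 5. Genes were also partly chosen by the size of their change. The rate for these groups is therefore not known, and the genes of a list are not independent. No explanation was weighed.

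Mastitis 1 stood apart in milk genes. Its mammary secretory score of -1.2 was the highest of the mastitis arrays, the next being -2.54, and it read highest for ELF5 (5.6), DNAJC12 (5.14), BTN1A1 (5.06), ABCG2 (4.16) and GPAM (3.99). Its chemokine score of 0.19 was the lowest, the next being 0.84. Mastitis 3 was highest for EPCAM, at 3.11.

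Endometritis 5 was the lowest array of its group for ELF5 (6.13), FASN (7.32), FABP3 (8.22), GLYCAM1 (11.2), LALBA (11.6), CSN2 (12.0), CSN1S2 (12.5), CSN3 (12.8) and PAEP (13.3). It was the highest for TNF, at 5.89, and for the cell cycle score, at 1.2 with the next at 0.15. Endometritis 6 was the highest of its group for RUBCNL (8.43), CXCR1 (8.28), WLS (6.53) and TNFAIP6 (4.15).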

How the results depend on the processing

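No setting reversed a called gene except 1 of 1831 when a gene was the mean of its probe sets. Of the 1831 calls, 1821 passed with an intensity trend, 1717 with centring and 1708 with a block for sample title numbers above a limit. That block held more endometritis than mastitis arrays. The calls that passed were 1488 with the GAPDH covariate, 1379 in the fit of the 12 arrays and 1307 with array weights. They were 1139 of 1813 with scaling to the hybridisation controls and 1000 with the dap covariate. With the dap covariate the counts were 1122 probe sets higher and 1008 lower, 481 genes higher and 629 lower, 392 and 411 of them at least 2-fold, 17 oxidative phosphorylation and 22 ribosomal genes lower. Scaling to the hybridisation controls gave 931 probe sets, 594 genes, 12 oxidative phosphorylation and 26 ribosomal genes lower. Array weights gave 338 genes at least 2-fold lower, with 17 oxidative phosphorylation and 24 ribosomal genes lower, and the 12 arrays alone 18 and 29. Without endometritis 5 and 6 there were 17 oxidative phosphorylation genes lower, and 12 without mastitis 1 as well. The causes were not tested. Testing against a 2-fold change (treat) left 141 genes higher and 33 lower, a stricter test by construction. Without 1 array there were 1515 to 2095 probe sets higher and 1100 to 1740 lower, 661 to 881 genes higher and 703 to 1151 lower, 514 to 667 and 456 to 720 at least 2-fold, 8 neutrophil, 23 to 24 interferon, 15 to 18 secretory, 35 to 54 ribosomal and 21 to 38 oxidative phosphorylation genes. HBA, near background, turned from -0.03 to 0.015 with centring, and ran from -0.040 to 8.88e-16 without 1 array, the last without endometritis 3. The filter on dim probe sets moved the median of all genes from -0.01 to -0.12. Higher genes were 45.7% of calls, and 40.6% to 56.1% under the settings run. No paired analysis was possible because the labels give no replicate number shared by the groups.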
